A study of Mus musculus with 10 samples.

Results

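Liver expression of 9 genes of HDL handling, lipolysis and lipoprotein assembly was followed in mice treated with MI-883, a ligand of the nuclear receptors CAR and PXR. The genes were *Scarb1*, *Lipc*, *Lcat*, *Pltp*, *Abca1*, *Lipg*, *Lpl*, *Angptl8* and *Mttp*. They were taken from a list by name, with earlier results of these data known, and are 9 of 16647 genes in the deposited table of raw read counts. All 9 were matched to their Entrez gene numbers and all 9 passed the filter of at least 60 counts summed over the livers, which left 13219 tested genes.

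The livers came from male humanized PXR-CAR-CYP3A4/3A7 mice, 5 control and 5 MI-883-treated. What drives the human genes in this line is not given in the sources used here, and the 9 genes described are mouse genes in both groups. All animals started a high-fat diet with 30% fat at an age of 10 to 15 weeks and stayed on it. After 8 weeks on this diet, the treated mice received MI-883 at 5 mg/kg by oral gavage 3 times per week for 4 weeks, and the control mice received the vehicle (DMSO, PEG300 and corn oil) on the same schedule. Each library is from another animal, and between 23513665 and 36221514 reads per liver were counted on genes. *Cyp2b10*, the mouse gene commonly used to mark CAR activation, rose from 36.5 ± 9.10 CPM without to 1019 ± 299 CPM with MI-883 (S.D., n = 5 each, log2 fold change 4.80). CPM are counts per M reads after TMM scaling of the library sizes. Hepatocyte markers led the libraries, with *Alb* at 56582 ± 4446 CPM in control livers (n = 5), while the adipocyte markers *Adipoq*, *Retn* and *Plin1* summed to at most 0.395 CPM in any liver and *Lep* was not among the listed genes.

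HDL particles form when the transporter ABCA1, encoded by *Abca1*, loads cellular lipid onto apolipoprotein A-I. In plasma, LCAT esterifies their cholesterol, PLTP moves phospholipid onto them, and hepatic lipase (*Lipc*) and endothelial lipase (*Lipg*) hydrolyse their lipids. The liver takes up cholesteryl ester from HDL through SR-BI, the product of *Scarb1*. Lipoprotein lipase (*Lpl*) hydrolyses triglyceride of circulating lipoproteins, mostly outside the adult liver, and ANGPTL8 is a circulating protein that takes part in its inhibition. On the export side, the microsomal triglyceride transfer protein, whose large subunit is encoded by *Mttp*, lipidates nascent very-low-density lipoprotein in the endoplasmic reticulum. Mice lack cholesteryl ester transfer protein and carry most plasma cholesterol in HDL.

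Per length of exon, *Lcat* had the highest level of the 9 genes in control livers, at 262 ± 26.6 CPM per kb (S.D., n = 5). *Mttp* followed at 96.8 ± 5.67 CPM per kb, *Lipc* at 77.2 ± 5.48 and *Scarb1* at 71.8 ± 8.09 CPM per kb. Next came *Angptl8* at 51.4 ± 29.8, *Pltp* at 35.6 ± 6.77 and *Abca1* at 15.7 ± 1.06 CPM per kb. *Lipg* at 7.91 ± 2.43 and *Lpl* at 5.89 ± 3.89 CPM per kb were lowest. The control ranges of *Lipc* and *Scarb1* overlapped, as did those of *Scarb1* and *Angptl8*, of *Angptl8* and *Pltp*, and of *Lipg* and *Lpl*, while the other neighbours in this order were apart in all 5 control livers. In MI-883-treated livers the first 7 genes stood in the same order, and *Lpl* (8.66 ± 6.03 CPM per kb) and *Lipg* (8.23 ± 2.57 CPM per kb) overlapped with each other. There the ranges of *Lipc* and *Scarb1*, of *Angptl8* and *Pltp* and of *Abca1* and *Lpl* overlapped as well. Levels per kb rest on the exons of protein-coding transcripts in GENCODE M21, which may differ from those the authors counted.

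**Figure D1:**
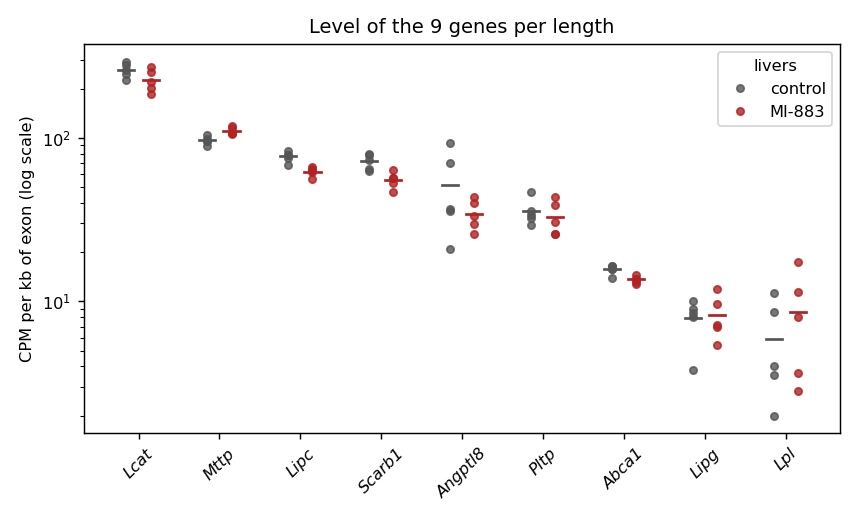
CPM per kb of exon (log scale) of the 9 genes in each control (grey) and MI-883-treated (red) liver, with a line at the mean of 5 livers, ordered by the control mean. *Lcat* stands highest at 262 CPM per kb in control livers, and *Lipg* and *Lpl* stand lowest, at 7.91 and 5.89 CPM per kb.

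Between the groups, 6 of the 9 genes had a negative and 3 a positive log2 fold change, with a median of -0.20 beside 0.0045 over all tested genes. In the fit across all genes (edgeR, quasi-likelihood test, Benjamini-Hochberg adjusted), 0 of the 9 genes had an adjusted P under 0.05, where 1.03% of all tested genes did. At an unadjusted P under 0.05 there were 4 of the 9, namely *Scarb1*, *Lipc*, *Abca1* and *Mttp*, beside 15.6% of all tested genes. The Wald test of DESeq2 called 2 of the 9, *Scarb1* and *Lipc*, beside 3.50% of all tested genes. The groups did not overlap in 2 of the 9 genes, *Lipc* and *Mttp*, beside 3.98% of all tested genes. The genes were chosen with earlier results of these data known, so that their counts are given as a description. In bulk liver, fewer cells of a type and less RNA per cell cannot be told apart.

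**Figure D2:**
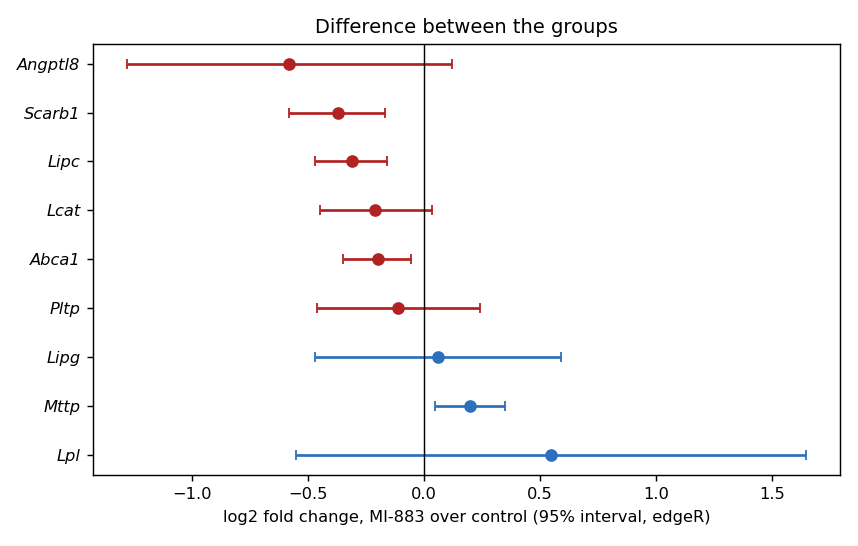
Log2 fold change of MI-883-treated over control livers for the 9 genes (points) with 95% intervals from edgeR (bars), 5 livers per group, red for negative and blue for positive values. The intervals of *Scarb1*, *Lipc*, *Abca1* and *Mttp* lie to one side of 0, and those of *Lpl* (-0.55 to 1.65) and *Angptl8* (-1.28 to 0.12) are the widest.

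*Scarb1* (Entrez gene 20778, chromosome 5, 125277087 to 125341094 of GRCm38) encodes the HDL receptor SR-BI. Its expression in control replicates 1 to 5 was 200, 213, 216, 174 and 169 CPM, and in MI-883 replicates 1 to 5 it was 172, 154, 143, 153 and 126 CPM. All 5 MI-883-treated livers lay below the control median and 4 lay below the lowest control liver, with MI-883 replicate 1 above control replicate 5. The mean level was 0.771 times that of control, with a 95% interval from 0.667 to 0.891 (log2 fold change -0.37, standard error 0.0967). This difference did not pass in edgeR (adjusted P = 0.0929) and passed in DESeq2 (adjusted P = 0.0128). Permuting the livers exactly (two-sided, on mean log2 CPM) gave P = 0.0159, where 0.00794 is the smallest P that 5 against 5 livers allow.

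*Lipc* (Entrez gene 15450, chromosome 9, 70798128 to 70952221) encodes hepatic lipase, which hepatocytes secrete. It was measured at 147, 170, 179, 170 and 163 CPM in control replicates 1 to 5 and at 143, 133, 134, 138 and 120 CPM in MI-883 replicates 1 to 5. Every MI-883-treated liver was below every control liver, by a gap between control replicate 1 and MI-883 replicate 1 that is small beside the spread within the groups. Relative to control the level was 0.806 (95% interval 0.724 to 0.897, log2 fold change -0.31, standard error 0.0716). The adjusted P was 0.0598 in edgeR and 0.0024 in DESeq2, and the exact permutation P was at its smallest possible value, 0.00794. Control replicate 1 was the lowest control liver for *Lipc*, and without it the adjusted P of *Lipc* was 0.0330 (edgeR). In none of the other 9 fits that each left out 1 liver did *Lipc* pass, and the highest adjusted P among them was 0.150 (edgeR).

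*Mttp* (Entrez gene 17777, chromosome 3, 138089855 to 138143418) stood on the other side. Control replicates 1 to 5 were at 423, 422, 392, 436 and 461 CPM, and MI-883 replicates 1 to 5 at 473, 525, 476, 468 and 507 CPM. Each treated liver was above each control liver, with the closest pair at 461 and 468 CPM. The ratio to control was 1.15 with a 95% interval from 1.03 to 1.28 (log2 fold change 0.20, standard error 0.0707), with an adjusted P of 0.203 in edgeR and 0.0515 in DESeq2 and an exact two-sided permutation P of 0.00794. With 60 counts required in every liver and the default filtering of DESeq2, a setting added after the data were seen, the adjusted P of *Mttp* was 0.0154 (DESeq2). The authors' methods name DESeq2 and a minimum of 60 counts in all samples. Read as 60 in each liver, that filter is the one of this setting. Of the annotated exon bases of *Mttp*, 7.36% overlap *Trmt10a* on the opposite strand. The libraries were made with a directional kit, but the strand setting of the counting is not given in the sources used here, so reads from such stretches cannot be told apart.

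**Figure D3:**
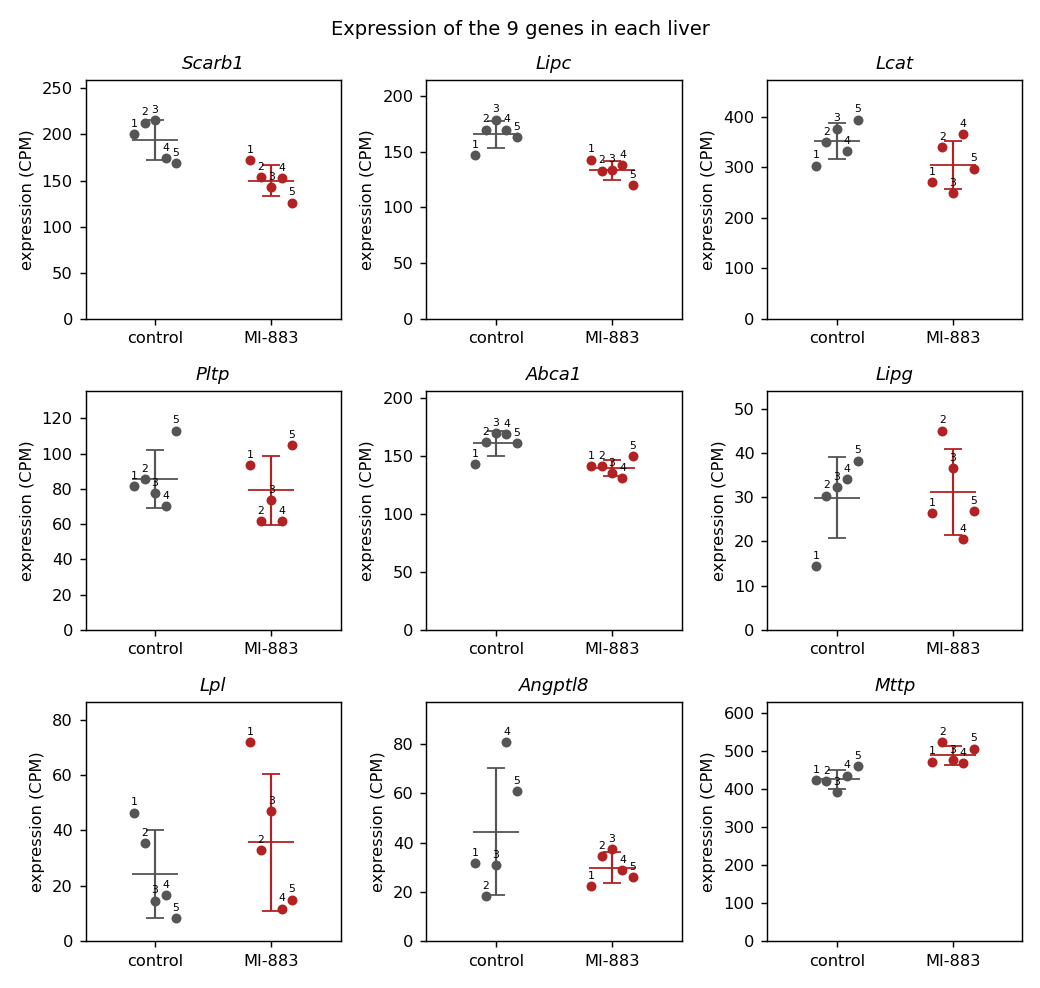
Expression of the 9 genes (CPM, axes from 0) in each of 5 control (grey) and 5 MI-883-treated (red) livers, with the replicate number above each point and the mean ± S.D. as bars. The groups are apart for *Lipc* (lower) and *Mttp* (higher) and overlap for the other 7 genes.

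The promoter windows of *Lipc* and *Mttp* are shown because these are the genes whose groups did not overlap. Each runs from 250 bases before to 50 bases after an annotated start (RefSeq, GRCm38.p6), on the minus strand of the chromosome and printed 5′ to 3′ along the gene. Capitals mark the motifs AGGTCA and AGTTCA on either strand, which are recognition elements of nuclear receptors such as CAR and PXR when they occur as pairs. *Lipc* has a window at each of its annotated starts, chr9:70952172-70952471 and chr9:70934759-70935058, and *Mttp* has one at chr3:138143369-138143668.

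Lipc, upstream start: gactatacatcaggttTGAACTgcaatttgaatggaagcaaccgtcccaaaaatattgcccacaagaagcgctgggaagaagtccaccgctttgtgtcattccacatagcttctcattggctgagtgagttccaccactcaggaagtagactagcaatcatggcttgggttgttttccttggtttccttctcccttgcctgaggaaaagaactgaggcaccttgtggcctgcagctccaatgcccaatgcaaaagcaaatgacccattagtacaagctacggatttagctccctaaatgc

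Lipc, downstream start: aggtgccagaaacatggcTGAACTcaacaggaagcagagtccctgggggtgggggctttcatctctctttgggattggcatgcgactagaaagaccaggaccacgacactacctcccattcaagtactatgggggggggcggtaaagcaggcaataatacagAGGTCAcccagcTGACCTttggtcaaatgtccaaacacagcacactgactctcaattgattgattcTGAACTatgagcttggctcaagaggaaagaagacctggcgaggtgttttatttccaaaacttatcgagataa

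Mttp: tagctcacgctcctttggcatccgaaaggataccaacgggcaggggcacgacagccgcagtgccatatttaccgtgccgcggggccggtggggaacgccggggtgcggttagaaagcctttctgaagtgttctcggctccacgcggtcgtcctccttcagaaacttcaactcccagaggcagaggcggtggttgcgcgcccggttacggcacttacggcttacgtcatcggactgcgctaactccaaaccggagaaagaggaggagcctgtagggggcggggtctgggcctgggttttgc

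The upstream window of *Lipc* held 1 match, the downstream window 4, and the window of *Mttp* 0. Among all 32851 promoter windows of this length, AGGTCA was found in 16.3%, AGTTCA in 14.0% and either of them in 27.7%. A match is a stretch of letters and not a binding site, and counts per gene do not show which start of *Lipc* was used. Of the 9 genes, 6 were matched to such windows, and *Scarb1*, *Lipg* and *Lpl* were not. The single window of *Abca1* held 1 match to AGTTCA, while those of *Lcat*, *Pltp* and *Angptl8* held none.

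Among the genes that build and remodel HDL, *Abca1* (Entrez gene 11303, chromosome 4, 53030789 to 53159988) was at 143, 162, 170, 169 and 161 CPM in control replicates 1 to 5 and at 141, 141, 135, 131 and 150 CPM in MI-883 replicates 1 to 5. The groups overlapped through control replicate 1, the lowest control liver, and 4 of the 5 treated livers were below it. The ratio to control was 0.869 (95% interval 0.785 to 0.961, log2 fold change -0.20, standard error 0.0677), with an adjusted P of 0.178 in edgeR and 0.0679 in DESeq2 and an exact two-sided permutation P of 0.0159. *Lcat* (Entrez gene 16816, chromosome 8, 105939551 to 105943402) ranged from 303 to 394 CPM in the controls and from 248 to 365 CPM after MI-883. The log2 difference was -0.21, with a 95% interval from -0.45 to 0.034 and an adjusted P of 0.391 (edgeR). *Pltp* (Entrez gene 18830, chromosome 2, 164839518 to 164857708) ranged from 70.1 to 113 and from 61.6 to 105 CPM, with a log2 fold change of -0.11 (95% interval -0.46 to 0.24, adjusted P = 0.777 from edgeR). The highest *Pltp* value of each group was that of replicate 5, and without control replicate 5 the log2 fold change was 0.0099. Of the exon bases of *Pltp*, 19.3% overlap *Ctsa* on the opposite strand, with the same limit on strand as above.

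The endothelial lipase gene *Lipg* (Entrez gene 16891, chromosome 18, 74939322 to 74961263) averaged 29.9 ± 9.19 CPM without and 31.2 ± 9.72 CPM with MI-883 (S.D., n = 5 each). Control replicate 1 was lowest at 14.4 CPM and MI-883 replicate 2 highest at 45.1 CPM. The log2 fold change was 0.060 with a 95% interval from -0.47 to 0.59 (adjusted P = 0.928 from edgeR). It turned negative without control replicate 1 (-0.12), without MI-883 replicate 2 (-0.11) and without MI-883 replicate 3 (-0.0052).

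*Lpl* (Entrez gene 16956, chromosome 8, 68880555 to 68906932) had the widest range of the 9 genes. Control replicates 1 to 5 were at 46.4, 35.4, 14.6, 16.5 and 8.25 CPM, and MI-883 replicates 1 to 5 at 72.0, 32.8, 46.9, 11.7 and 14.9 CPM. Livers with high and with low *Lpl* occurred in both groups, and the highest liver was 8.73 times the lowest. The log2 fold change of 0.55 had a standard error of 0.508, a 95% interval from -0.55 to 1.65 and an adjusted P of 0.627 (edgeR), and it lay between 0.12 without MI-883 replicate 1 and 0.92 without control replicate 1.

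The genes whose profile over the 10 livers was closest to that of *Lpl* were *Cd63*, *Lgals3* and *S100a11*. They encode a tetraspanin of late endosomes, galectin-3 and a calcium-binding protein. Closeness was the root mean square difference of log2 CPM, each gene taken relative to its own mean, over 7788 genes with at least 10 CPM on average. It was 0.249 for *Cd63*, 0.303 for *Lgals3* and 0.334 for *S100a11*, against 0.977 for the spread of *Lpl* itself. These names for *Lpl* were looked up after its values had been seen. *Lgals3* was at 24.6, 15.1, 8.50, 8.17 and 5.62 CPM in control replicates 1 to 5 and at 38.0, 15.5, 41.2, 8.66 and 9.29 CPM in MI-883 replicates 1 to 5, so that its high livers were also the high livers of *Lpl*. *Cd68*, which encodes a lysosomal glycoprotein of macrophages, was at 14, 13.1, 10.3, 8.77 and 7.85 CPM in control replicates 1 to 5. In MI-883 replicates 1 to 5, *Cd68* was at 23, 11.7, 21.9, 11.1 and 10.9 CPM. Its log2 fold change was 0.54 (adjusted P = 0.306 from edgeR), while the other macrophage markers lay between -0.18 and 0.19. The 7 macrophage markers together summed to 225 to 314 CPM in the controls and 181 to 405 CPM after MI-883, highest in MI-883 replicate 1. In MI-883 replicate 3 the sum was 269 CPM, below control replicates 1 and 4 at 314 and 275 CPM. The defining Kupffer cell markers *Clec4f* (79.8 and 70.5 CPM on average in control and MI-883) and *Timd4* (3.12 and 3.27 CPM) were measured in both groups. The part of macrophages in the level of *Lpl* was not tested.

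**Figure D4:**
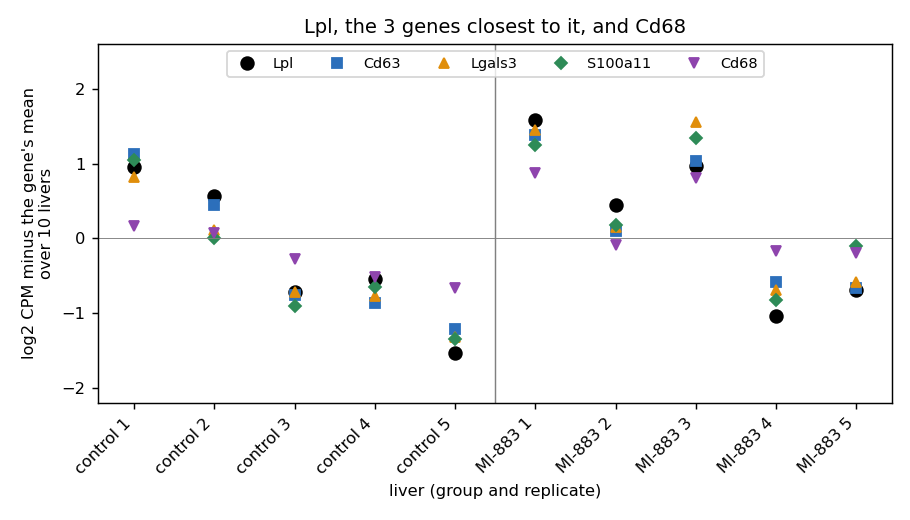
Log2 CPM of *Lpl*, *Cd63*, *Lgals3*, *S100a11* and *Cd68*, each minus its own mean over the 10 livers (y axis), in each liver (x axis, control left and MI-883 right of the line). *Lpl* and the 3 genes closest to it stand high in control replicate 1 and MI-883 replicates 1 and 3. They stand low in control replicates 3 to 5 and MI-883 replicates 4 and 5, except *S100a11*, which is near its mean in MI-883 replicate 5 (15.1 CPM).

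*Angptl8* (Entrez gene 624219, chromosome 9, 21835510 to 21837347), a gene induced by feeding in the liver, lies within *Dock6* on the opposite strand, and none of its exon bases overlap exons of *Dock6*. It was at 31.5, 18.1, 30.9, 81.0 and 60.9 CPM in control replicates 1 to 5 and at 22.3, 34.6, 37.5, 28.9 and 25.8 CPM in MI-883 replicates 1 to 5. Control replicates 4 and 5 were above every treated liver, while the other 3 control livers lay within the range of the treated group or below it. The log2 fold change was -0.58 with a standard error of 0.324 and a 95% interval from -1.28 to 0.12 (adjusted P = 0.411 from edgeR). Without control replicate 4 it was -0.24, and without control replicate 2 it was -0.77. The ratio to control may thus lie between 0.413 and 1.09, and a difference of *Angptl8* was not detectable with these livers.

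Among the 3 closest profiles to *Scarb1* over the 10 livers were those of *Luc7l3* (root mean square difference 0.0937) and *Ino80b* (0.109), beside a spread of 0.238 for *Scarb1* itself. *Luc7l3*, which encodes a splicing-related protein, averaged 69.6 ± 6.44 CPM without and 55.3 ± 5.89 CPM with MI-883 (S.D., n = 5 each), with a log2 fold change of -0.33 (adjusted P = 0.104 from edgeR). The closest profiles to *Lipc* were *Mbl1*, which encodes a mannose-binding lectin secreted by hepatocytes (0.0486), *Uimc1* (0.0697) and the solute carrier gene *Slc17a2* (0.0710), beside 0.179 for *Lipc*. *Mbl1* fell from 190 ± 9.81 to 149 ± 9.25 CPM (n = 5 each, log2 fold change -0.35, adjusted P = 0.0260 from edgeR). *Slc17a2* fell from 166 ± 6.28 to 133 ± 4.52 CPM (n = 5 each, log2 fold change -0.32, adjusted P = 0.0198 from edgeR). Both had a slightly larger fold change than *Lipc* and a smaller standard error, 0.0669 for *Mbl1* and 0.0580 for *Slc17a2*.

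Hepatocyte markers were examined because *Scarb1*, *Lipc*, *Lcat* and *Mttp* are expressed by hepatocytes. All 5 markers (*Alb*, *Ttr*, *Tat*, *Cps1* and *Asgr1*) had negative log2 fold changes, from -0.36 to -0.16, and 0 of 5 had an adjusted P under 0.05 (edgeR), with 1 of 5 at an unadjusted P under 0.05 and 0 of 5 called by DESeq2, beside 1.03%, 15.6% and 3.50% of all tested genes. Their sum ranged from 62137 to 71895 CPM in the controls and from 53756 to 64945 CPM after MI-883 (exact two-sided permutation P = 0.0397). Most of this sum was *Alb*, at 56582 of 66324 CPM on average in the controls. The P therefore mainly reflects *Alb*. In edgeR, another test that cannot be set directly against the permutation of sums, the unadjusted P of *Alb* was 0.174. *Ttr*, which encodes transthyretin, was the single marker without overlap, at 6466 ± 567 and 5448 ± 458 CPM (n = 5 each), where 3.98% of all tested genes had none. The log2 fold changes of the markers had the sign of those of *Scarb1* and *Lipc* and the opposite sign to that of *Mttp*, none of which passed in edgeR, and the part of hepatocyte content in these values was not tested. Sinusoidal endothelial markers, where *Lipg* may be expressed, summed to 148 to 209 CPM in control and 169 to 230 CPM in treated livers, with 0 of 7 called by edgeR, 2 of 7 at an unadjusted P under 0.05 (15.6% of all tested genes) and 0 of 7 called by DESeq2. Control replicate 1 had both the lowest *Lipg* value and the lowest endothelial sum. In control replicates 2 to 5, *Lipg* was at 30.4, 32.3, 34.2 and 38.3 CPM, at endothelial sums of 201, 204, 209 and 201 CPM. In MI-883 replicates 1 to 5, *Lipg* was at 26.5, 45.1, 36.7, 20.5 and 26.9 CPM. The endothelial sums of these treated livers were 230, 196, 169, 226 and 222 CPM. The part of endothelial cells in the level of *Lipg* was not tested. Stellate cell markers ranged from 239 to 357 and from 255 to 414 CPM and bile duct markers from 4.45 to 8.16 and from 5.53 to 11.6 CPM in the same order. Most of the stellate sum was *Dcn*, at 165 of 290 CPM on average in the controls. Positive log2 fold changes were found for 6 of 7 sinusoidal endothelial and 6 of 7 macrophage markers. The same held for 5 of 6 stellate and 4 of 4 bile duct markers, while 49% of all tested genes had a negative value. In these 4 lists 0 genes were called by edgeR or by DESeq2. The exact two-sided permutation P of the marker sums was 0.389 for sinusoidal endothelial and 0.976 for macrophage markers. It was 0.413 for stellate, 0.127 for bile duct and 0.302 for adipocyte markers.

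Of 41 partner genes of the 9, 20 had a negative and 21 a positive log2 fold change, with a median of 0.012. One of them, *Pdzk1*, had an adjusted P under 0.05 in edgeR, which is 2.44% of the 41 beside 1.03% of all tested genes. At an unadjusted P under 0.05 there were 7 of 41, beside 15.6% of all tested genes, and DESeq2 called 3 of 41, beside 3.50%. The groups did not overlap in 2 of 41, *Pdzk1* and *Pon3*, beside 3.98% of all tested genes. The 3 called by DESeq2, *Pdzk1*, *Pon3* and *P4hb*, were higher in MI-883-treated livers.

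*Pdzk1*, the PDZ adaptor that keeps SR-BI at the hepatocyte surface, rose after treatment. It was at 109, 101, 117, 115 and 106 CPM in control replicates 1 to 5 and at 132, 141, 128, 157 and 137 CPM in MI-883 replicates 1 to 5, without overlap. The log2 fold change was 0.34 with a standard error of 0.0718 (adjusted P = 0.0415 from edgeR and 7.1e-04 from DESeq2, exact two-sided permutation P = 0.00794), opposite in sign to that of *Scarb1*. Over the 10 fits that each lacked 1 liver, the fold change of *Pdzk1* on the log2 scale stayed between 0.29 and 0.37, and the adjusted P (edgeR) was under 0.05 only without MI-883 replicate 3, reaching 0.115 without control replicate 5. With the replicate number as a block the adjusted P was 0.0824, and with no count filter it was 0.0517 (edgeR).

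Among the other HDL partners, *Pon3*, a paraoxonase associated with HDL, was at 58.6 ± 3.11 CPM in control and 70.3 ± 4.67 CPM in treated livers without overlap (n = 5 each, log2 fold change 0.26, adjusted P = 0.0845 from edgeR and 0.0097 from DESeq2). *Nr1h3*, which encodes LXRα, the oxysterol receptor that induces *Abca1*, had a log2 fold change of -0.19 (adjusted P = 0.252 from edgeR). For *Apom*, an apolipoprotein of HDL, it was -0.29 (adjusted P = 0.348 from edgeR). Values near 0 were found for *Hnf4a* (-0.0030) and *Nr5a2* (0.030), both of which encode hepatocyte transcription factors.

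Among 11 lipase partners, 7 were higher and 4 lower, from -0.14 to 0.25 on the log2 scale, and 0 of 11 passed in edgeR, with 1 at an unadjusted P under 0.05 and 0 in DESeq2, beside 1.03%, 15.6% and 3.50% of all tested genes. That 1 gene was *Sel1l*, whose product acts in the folding and export of lipoprotein lipase, with a log2 fold change of 0.18 (adjusted P = 0.239 from edgeR). *Angptl4*, a further inhibitor of lipoprotein lipase, was at 169 ± 37.2 and 200 CPM on average (log2 fold change 0.25, adjusted P = 0.461 from edgeR), and *Pcsk6*, which encodes a proprotein convertase, had a log2 fold change of 0.22 (adjusted P = 0.335 from edgeR). *Mgll*, which encodes monoacylglycerol lipase, was on the other side with a log2 fold change of -0.12 (adjusted P = 0.444 from edgeR). *Lmf1*, the lipase maturation factor, and *Gpihbp1*, the endothelial anchor of lipoprotein lipase, had log2 fold changes of 0.016 and 0.078.

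For 13 assembly partners, 8 were higher and 5 lower, and 0 of 13 passed in edgeR, with 3 at an unadjusted P under 0.05 and 1 in DESeq2. Over all tested genes these shares were 1.03%, 15.6% and 3.50%. The one called by DESeq2 was *P4hb*, which encodes protein disulfide isomerase, the small subunit of the complex with the *Mttp* product. *P4hb* was at 945, 837, 933, 825 and 1007 CPM in control replicates 1 to 5 and at 968, 1130, 1109, 1116 and 1053 CPM in MI-883 replicates 1 to 5. The groups overlapped through MI-883 replicate 1, and the log2 fold change of 0.24 (standard error 0.0834) had the sign of that of *Mttp*, with an adjusted P of 0.187 in edgeR and 0.0468 in DESeq2. *Sort1*, which encodes the sorting receptor sortilin, had the largest log2 fold change of the list, 0.61 (standard error 0.257, adjusted P = 0.277 from edgeR), with 16.4 CPM in MI-883 replicate 5 and 4.03 to 9.69 CPM in the other livers. *Pla2g12b*, a secretory-pathway protein needed for lipoprotein lipidation, was at -0.19 (adjusted P = 0.252 from edgeR). *Dgat1* and *Dgat2*, which encode the enzymes of the last step of triglyceride synthesis, were at 0.012 and -0.044 on the log2 scale.

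Of 7 genes of remnant uptake, 6 were lower and 1 higher, and 0 of 7 passed in edgeR, with 0 at an unadjusted P under 0.05 and 0 in DESeq2, beside the same shares of all tested genes (1.03%, 15.6% and 3.50%). *Vldlr*, the receptor for very-low-density lipoprotein, had the lowest log2 fold change, -0.59 (adjusted P = 0.484 from edgeR), at 18 to 142 counts per liver. For *Sdc1*, a heparan sulfate proteoglycan that binds remnants, the log2 fold change was -0.20 (adjusted P = 0.385 from edgeR), and for *Lrp1*, a remnant receptor, it was -0.083 (adjusted P = 0.775 from edgeR). *Ndst1*, which encodes an enzyme that sulfates heparan sulfate, was the 1 gene of the list with a positive value, 0.15 (adjusted P = 0.682 from edgeR).

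**Figure D5:**
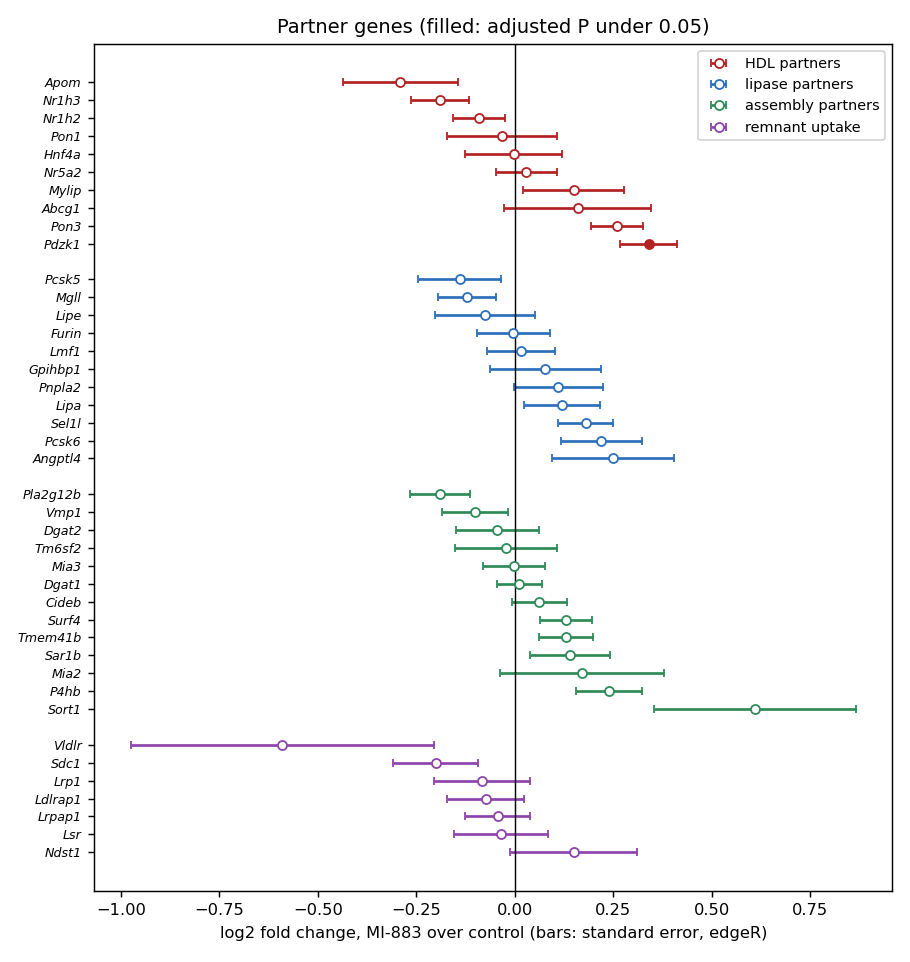
Log2 fold change of MI-883-treated over control livers (points) with standard errors (bars, edgeR, 5 livers per group) for 41 partner genes in 4 lists. *Pdzk1* at 0.34 is the one filled point, which marks an adjusted P under 0.05, and the lists spread to both sides of 0 apart from remnant uptake, where 6 of 7 genes are below 0.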

How the data were processed

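Liver RNA of 5 control and 5 MI-883-treated male humanized mice was sequenced as paired-end reads on a NovaSeq6000. The authors aligned the reads to mm10 with STAR, counted them on genes with featureCounts and deposited raw counts per Entrez gene. fastp 0.23.0 is named in the submitters' processing notes, while the other versions, the annotation and the strand setting are not given in the sources used here. Of 16647 listed genes, 16644 were matched to RefSeq symbols of GRCm38. Livers were grouped by their labels, and no pair of livers in a group agreed within sampling noise (lowest chi-square per degree of freedom 23.6).

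For genes with at least 60 summed counts (13219), treatment was the only model term in edgeR 4.0.16 under R 4.3.3 (quasi-likelihood test, TMM, Benjamini-Hochberg adjustment over all tested genes, threshold 0.05). Standard errors were derived from the F statistic, and 95% intervals from its degrees of freedom. For single genes, mean log2 CPM was also compared by exact permutation of the livers (two-sided). DESeq2 1.42.0, other scalings and filters, a replicate block and leaving out each liver were alternatives. The pipeline was also run on simulated data. The differences planted there were larger than those of *Scarb1*, *Lipc*, *Abca1* and *Mttp*, so that run does not bear on such sizes. The 9 genes and all lists were chosen with earlier results of these data known. Named partners were those past the threshold, otherwise the 3 with the lowest P of a list, and genes needed to describe a role, and profiles were compared for *Scarb1* and *Lipc* by the rule stated in the text. One gene that this rule names is not reported here.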

Additional observations from a re-analysis of the deposited data

How the results depend on the processing

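The signs of *Scarb1*, *Lipc*, *Lcat*, *Abca1*, *Angptl8*, *Lpl* and *Mttp* were kept in all alternatives run. The Wald test of DESeq2 brought *Scarb1* (log2 fold change -0.38) and *Lipc* (-0.31) past the threshold, so that it called 2 of the 9 genes, 3 of the partners and 463 genes in all. DESeq2 with 60 counts in every liver, chosen after seeing the data, called 3 of the 9 genes (*Scarb1* at -0.36, *Lipc* at -0.29 and *Mttp* at 0.22), 3 partners and 449 genes in all. Its test and filter match those of the authors' methods when their minimum is read as holding in each liver. Over the 10 fits that each lacked 1 liver, the log2 value of *Lipc* stayed between -0.35 and -0.27, that of *Pltp* between -0.23 and 0.0099 and that of *Lipg* between -0.12 and 0.18. The number of the 9 genes called was then 0 to 1, that of the partners 0 to 1 and that of all genes 62 to 208. This last count was 208 without control replicate 1, 62 and 70 without MI-883 replicates 5 and 2, and 87, 81, 75 and 68 without control replicates 2, 3, 4 and 5. Without a count filter, 0 partners passed, as *Pdzk1* moved from 0.0415 to 0.0517 (adjusted P, edgeR). The cause of these changes was not tested.

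Deviations of same-numbered livers from their group means had correlations of 0.360, -0.121, -0.102, 0.0761 and 0.0790 for replicates 1 to 5. The MI-883 replicates with the highest correlation to control replicates 1 to 5 were 3, 1, 4, 2 and 4. No control liver thus matched best with its own number, and the numbers are not taken to pair the animals. With the replicate block, 89 of all genes, 0 of the 9 genes and 0 of the partners passed, against 136, 0 and 1 without it.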
